A study of Rattus norvegicus with 16 samples.

Results

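The sterol efflux transporters Abcg5, Abcg8, Abca1 and Abcg1 and the liver X receptor Nr1h3 (LXR alpha) were followed in rat liver across 5 ages. The 5 genes were chosen by name, and all 6 probes that the array design assigns to them were taken, out of 41012 probes that are not controls and 35071 gene names on the array. Abcg8 had 2 probes and each of the other genes had 1. The livers came from male Lewis rats of 3 months (3 samples), 9 months (3 samples), 12 months (3 samples), 18 months (3 samples) and 24 months (4 samples), kept under specific pathogen-free conditions with free food and no treatment, and each RNA was hybridised to its own 1-colour array. The labels do not say whether the samples of an age are separate animals or at what hour livers were taken. The p-values therefore measure the spread between these samples, as 1 estimate per probe over all 5 ages, moderated by the other probes.

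Liver X receptors are nuclear receptors that bind oxysterols, pair with a retinoid X receptor and switch on genes that move cholesterol out of cells. Abcg5 and Abcg8 are partner proteins, each carrying part of a transporter, that together move cholesterol and plant sterols from hepatocytes into bile. Abca1 loads phospholipid and cholesterol onto apolipoprotein A-I and so starts HDL particles, and Abcg1 passes cholesterol to HDL and is best known from macrophages. Nr1h3 is the liver X receptor that is abundant in liver, and all 4 transporters are among its known target genes.

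The Abcg5 and Abcg8 genes stand head to head on chromosome 6 and share the 205 bases between them. That interval is shown because it is the promoter region of both genes. Its capitals mark the letters AGATAA, the core that GATA factors are known to bind, which occur 2 times on the strand shown (RefSeq, build GRCr8, chr6:15717731-15717935, plus strand, Abcg8 to the left and Abcg5 to the right).
Abcg5-Abcg8 interval: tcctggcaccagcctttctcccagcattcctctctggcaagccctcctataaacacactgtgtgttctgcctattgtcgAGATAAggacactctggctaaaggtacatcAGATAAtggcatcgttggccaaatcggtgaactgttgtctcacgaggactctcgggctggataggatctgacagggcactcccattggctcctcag
On either strand, AGATAA was present in the 205 bases before the start of 8.35% of the 33469 RefSeq promoters, and 2 or more copies were present in 0.604%. The letters AGGTCA, the core that nuclear receptors bind, were not in the interval on either strand, and 11.7% of promoters held them.

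In the RefSeq promoter window of Abca1, a pair of shorter cores in the same direction was found, read on the strand opposite to the one shown. The pattern was GGTNA followed after 5 bases by GGTCA, where N is any base. Its cores are looser than AGGTCA, and neither of those found is part of a full AGGTCA. This spacing of cores is the kind of element that liver X receptors are known to bind. Both strands were searched, and the pair lay 70 to 56 bases before the start that the window uses. That place is within the annotated gene, which runs to position 72596563 on this strand. Its capitals mark the pair in the 30 bases around it (RefSeq, build GRCr8, chr5:72596522-72596551, minus strand).
Abca1 promoter window: acagcgttTGACCGGTAGTAACCccggcgc
In the 250 bases before the start that the windows use, 0.209% of all promoters held this pair, and the windows of Abcg5, Abcg8 and Nr1h3 did not. Other forms of such a spaced pair were not searched for, so this absence covers this pattern only. Promoter windows were at hand for 4 of the 5 genes, the exception being Abcg1. A match of letters describes the sequence and is no evidence of binding.

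The values below rest on single 60-base probes. Those of the 3 transporters with the largest differences are printed because each stands for its gene's level. The better of the 2 Abcg8 probes is printed too, although it was mostly at background and does not give the level of Abcg8. Positions are those of the array file in build rn4, with the strand as given there: Abcg5 at chr6:8028067-8028126, minus strand, Abcg8 probe 2 at chr6:8077904-8078127, plus strand, over an interval longer than the probe itself, Abca1 at chr5:70493613-70493672, minus strand, and Abcg1 at chr20:9459359-9459418, plus strand. Of the Abcg1 probe the first 30 bases are shown.
Abcg5: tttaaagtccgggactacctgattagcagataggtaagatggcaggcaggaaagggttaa
Abcg8 probe 2: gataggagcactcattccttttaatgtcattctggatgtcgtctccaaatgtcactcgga
Abca1: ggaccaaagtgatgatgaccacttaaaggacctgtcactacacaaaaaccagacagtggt
Abcg1: gggtccgaattttccttacggcatggaacg
The Nr1h3 probe lay at chr3:75542215-75542274, minus strand, and Abcg8 probe 1 at chr6:8082883-8082942, plus strand.

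Levels are given as log2 signal relative to the 75th percentile of the same array, a scale on which a difference of 1 is a doubling, and levels of different probes cannot be compared. Between 53.0% and 65.6% of probes were well above background on an array, and no spot was saturated. Mean correlations across probes with the other arrays of the same age were lowest for replicate 2 of 12 months (0.965) and for replicates 3 and 4 of 24 months (0.974 and 0.975), and lay between 0.976 and 0.997 for the rest. Over probes well above background on all arrays, the median SD within an age ran between 0.085 log2 units at 3 months and 0.29 at 12 months. The tests assume 1 spread for all ages. Ages were spread unevenly over 7 slides and 3 scan days. All 3-month arrays shared slide 1 with 9 months replicate 2, and the first scan day held these, the other 9-month arrays and 12 months replicate 2. All 18-month arrays and 2 of the 12-month arrays were scanned on the second day. The 24-month arrays were alone on the third day and on slides 5, 6 and 7, so in every comparison with 24 months scan day or slide and age cannot be told apart. Scan session below groups the days by calendar year. The first session joins the first and the third day, and the second session is the second day. Only 12 months had arrays in both sessions. A session block therefore sets 12 and 18 months against the other ages through replicate 2 of 12 months alone, the array of lowest correlation. The 10 hepatocyte markers measured were well above background on all 16 arrays, and none of them passed the F test between ages.

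Of the 4 measurable probes, 3 differed between ages, and none of the 3 rose or fell at every step. Abcg5 fell 5.17-fold at 9 months relative to 3 months and was higher again at 24 months than at 9 and 18 months. Abcg1 was lower at 9, 12 and 18 months than at 3 months and higher at 24 months than at each of those 3 ages. Abca1 was lower at 18 months than at 3 months, by 1.50-fold, and higher at 24 than at 18 months. In both of these pairs age and scan day cannot be told apart. Both calls were lost with scan session or slide as a block. The calls of Abcg5 at 24 against 18 months and of Abcg1 at 12 and 18 against 3 months were lost likewise. So were those of Abcg1 at 24 against 12 and 18 months. For Abcg5 and Abcg1 too, age and scan day cannot be told apart at 18 against 3 months or in pairs with 24 months. Nr1h3 did not pass the test in any pair of ages, and the Abcg8 probes were mostly at background. In limma's F test over the 5 ages, 3 of the 4 members passed an adjusted p of 0.05, and 35.5% of the 25681 probes tested did. The adjusted p was 0.00246 for Abcg5, 0.0346 for Abca1, 0.00151 for Abcg1 and 0.714 for Nr1h3.

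**Figure D1:**
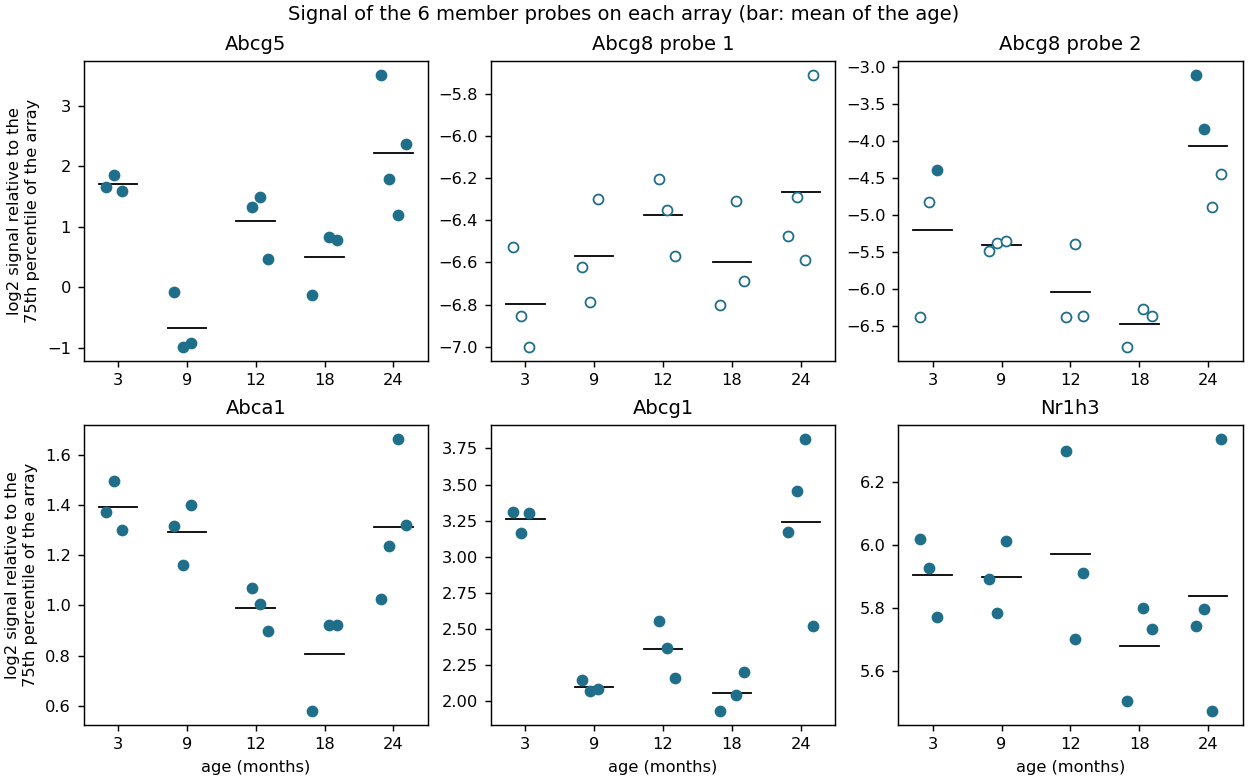
Log2 signal relative to the 75th percentile of the array (vertical axis, a separate range in each panel) for the 6 probes at 3, 9, 12, 18 and 24 months; each point is 1 array, an open point is not well above background, and the bar is the mean of the age. Abcg5 averaged -0.67 at 9 months against 1.70 at 3 months, and Abcg8 probe 1 was open on all 16 arrays.

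Nr1h3, the receptor, had log2 levels of 6.02, 5.93 and 5.77 at 3 months, 5.89, 5.79 and 6.01 at 9 months, 6.30, 5.70 and 5.91 at 12 months, 5.51, 5.80 and 5.73 at 18 months, and 5.74, 5.80, 5.47 and 6.34 at 24 months. The ranges of neighbouring ages overlapped, and the highest and the lowest array were both of 24 months. The means lay between 5.68 ± 0.16 at 18 months (SD, n = 3) and 5.97 ± 0.30 at 12 months (SD, n = 3). Their order from high to low was 12, 3, 9, 24 and 18 months, and no neighbours in it differed beyond their spread. At 24 against 3 months the log2 difference was -0.068, with a 95% interval of -0.47 to 0.34. Over the 10 pairs of ages no change passed limma's test, and none had an unadjusted p under 0.05. Only the RNA level was measured, so the activity of the receptor was not.

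Abcg5, the first member of the sterol pair, had log2 levels of 1.66, 1.85 and 1.59 at 3 months. At 9 months they were -0.085, -0.99 and -0.93. They were 1.33, 1.49 and 0.47 at 12 months, and -0.13, 0.83 and 0.78 at 18 months. The 4 arrays of 24 months read 3.52, 1.79, 1.20 and 2.37. The 2 lowest arrays were of 9 months, and the other 9-month array lay next to 18 months replicate 1. The 9-month arrays overlapped neither those of 3, nor of 12, nor of 24 months. The 24-month arrays spread over 2.32 log2 units, the widest range of any age, from replicate 3 to replicate 1.

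At 9 against 3 months Abcg5 was lower by a log2 change of -2.37 ± 0.48 (SE), with an adjusted p of 0.0125 in limma. It was 1 of 2 members that fell in this pair, and 2.97% of all probes fell. Slide 1 held all 3 arrays of 3 months and 1 of 9 months, and within it the change was -2.70 with an adjusted p of 0.00625, where the 9-month arm is 1 array that is assumed to vary like those of 3 months. Within the first scan session, a fit added after the data were seen, it was -2.37 with an adjusted p of 0.0316. The call was lost without 3 months replicate 2, 9 months replicate 2 or 9 months replicate 3, with changes of -2.29, -2.21 and -2.24 and adjusted p of 0.0557, 0.0563 and 0.0610.

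At 12 against 9 months Abcg5 was the member that rose, by 1.77 ± 0.48 on the log2 scale (SE), with an adjusted p of 0.0467 in limma, and 3.09% of all probes rose. This call sat at the threshold. It was lost when any 1 of 13 of the 16 arrays was left out, each array of 3, 9 and 12 months among them, and the change then lay between 1.57 and 2.08. Within slide 2, which held 12 months replicate 2 and 2 arrays of 9 months, it was 1.84 with an adjusted p of 0.0666, where the 12-month arm is the 1 array of lowest correlation and is assumed to vary like those of 9 months. Over all alternatives its adjusted p ran between 0.0167 and 0.266.

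The highest Abcg5 level was that of 24 months, 2.22 ± 0.99 (SD, n = 4), against -0.67 ± 0.51 at 9 months (SD, n = 3). The log2 change of 2.89 ± 0.45 (SE) was a 7.41-fold difference with an adjusted p of 0.00112 in limma, and 5.56% of all probes were higher in this pair. It kept its call in all 28 refits, with changes between 2.36 and 3.32, none of which separates age from scan day. At 24 against 18 months the change was 1.73 ± 0.45 (SE), 3.31-fold, with an adjusted p of 0.0134. The 18-month arrays were all of the second session, and that call was lost with scan session as a block (change 1.38, adjusted p = 0.313), with slide as a random block (1.62, adjusted p = 0.488) and without 18 months replicate 1 (1.42, adjusted p = 0.0724). In the order 24, 3, 12, 18 and 9 months, no neighbours passed the test. At 24 against 3 months the log2 difference was 0.52, with an interval of -0.46 to 1.49. At 18 against 3 months it was -1.21 ± 0.48 (SE), the groups did not overlap and the adjusted p was 0.0906.

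Abcg8, the partner of Abcg5, could not be followed. Probe 1 was not well above background on any of the 16 arrays, with log2 levels between -7.00 and -5.71. Probe 2 was well above background on 3 arrays only, 3 months replicate 3 at -4.39, 24 months replicate 1 at -3.10 and 24 months replicate 2 at -3.84. Neither probe was so on all arrays of an age, and both stayed out of the tests, so every age has only an upper bound.

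The readings of probe 2 are given as scanner values near the floor. They were -6.38, -4.82 and -4.39 at 3 months, -5.48, -5.38 and -5.36 at 9 months, and -6.38, -5.39 and -6.36 at 12 months. They were -6.79, -6.27 and -6.37 at 18 months, and -3.10, -3.84, -4.89 and -4.45 at 24 months. The 3 highest readings were the 3 well above background, and the readings below them have no order, so no difference between ages is given.

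Abca1, which starts HDL particles, had log2 levels of 1.37, 1.50 and 1.30 at 3 months and 1.32, 1.16 and 1.40 at 9 months. They were 1.07, 1.01 and 0.90 at 12 months, and 0.58, 0.92 and 0.92 at 18 months. The 24-month arrays read 1.02, 1.24, 1.66 and 1.32. The arrays of 12 and 18 months lay below all arrays of 3 and 9 months, and the 24-month arrays spanned the whole range of 3 and 9 months. All 16 arrays lay within little more than 1 log2 unit, a narrower span than that of Abcg5 or Abcg1.

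At 18 against 3 months Abca1 fell by 0.58 ± 0.16 on the log2 scale (SE), with an adjusted p of 0.0187 in limma, and 11.1% of all probes fell. At 24 against 18 months it rose by 0.50 ± 0.15 (SE), with an adjusted p of 0.0248. Both pairs set arrays of different scan days against each other, with no day that holds both ages. With scan session as a block the changes were -0.46 (adjusted p = 0.290) and 0.39 (adjusted p = 0.367), and with slide as a random block -0.65 and 0.55 (adjusted p = 0.347 for both). The first call was also lost without 3 months replicate 1 (-0.59, adjusted p = 0.0526), 3 months replicate 2 (-0.53, adjusted p = 0.0754) or 18 months replicate 1 (-0.47, adjusted p = 0.0828). The call at 24 against 18 months was lost without 18 months replicate 1 (0.39, adjusted p = 0.124) or 24 months replicate 3 (0.39, adjusted p = 0.0529).

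Other pairs did not pass for Abca1. At 18 against 9 months the difference was -0.49 ± 0.16 (SE), the groups did not overlap and the adjusted p was 0.0503. That pair passed in 3 of 16 refits without 1 array and in 4 of 11 other refits. With scan session as a block its difference was -0.37 (adjusted p = 0.447). In the order 3, 24, 9, 12 and 18 months, no neighbours passed the test. At 9 against 3 months, where Abcg5 and Abcg1 fell, the difference of Abca1 was -0.098, with an interval of -0.44 to 0.24. The call made for one gene and not for another is no test of a difference between them.

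Abcg1, which passes cholesterol to HDL, had log2 levels of 3.31, 3.16 and 3.30 at 3 months. They were 2.14, 2.07 and 2.09 at 9 months, 2.56, 2.37 and 2.16 at 12 months, and 1.93, 2.04 and 2.20 at 18 months. The 24-month arrays read 3.17, 3.45, 3.82 and 2.52. The 9 arrays of 9, 12 and 18 months all lay below the 3 of 3 months, and 3 of the 4 arrays of 24 months lay within or above the range of 3 months. Replicate 4 of 24 months, an array with a low correlation to its group, lay among the 12-month values.

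Relative to 3 months, Abcg1 fell at 9 months by 1.16 ± 0.24 on the log2 scale (SE, adjusted p = 0.0137 in limma), or 2.23-fold. It fell at 12 months by 0.90 ± 0.24 (SE, adjusted p = 0.0321), a pair in which 5.02% of all probes fell. It fell at 18 months by 1.20 ± 0.24 (SE, adjusted p = 0.00338). Within slide 1, with the 1 array of 9 months, the change at 9 against 3 months was -1.19 with an adjusted p of 0.0122, and within the first session it was -1.16 with an adjusted p of 0.0437. That call was lost without 3 months replicate 1, 3 months replicate 3, 9 months replicate 2 or 9 months replicate 3, with changes of -1.13, -1.14, -1.14 and -1.15 and adjusted p of 0.0592, 0.0614, 0.0510 and 0.0564. The call at 12 against 3 months was lost without any 1 of the 3-month arrays or of 12 months replicates 3 and 4, with changes between -0.94 and -0.80, within the first session (-0.70, adjusted p = 0.224), where 12 months is its 1 array of low correlation, assumed to vary like the other ages, with slide as a random block (-0.82, adjusted p = 0.0794), with scan session as a block (-0.70, adjusted p = 0.152) and with no filter on dim probes (adjusted p = 0.0598). The call at 18 against 3 months held without any 1 array and was lost with scan session as a block (-0.91, adjusted p = 0.181) and with slide as a random block (-1.18, adjusted p = 0.177).

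At 24 months Abcg1 averaged 3.24 ± 0.55 (SD, n = 4), against 2.10 ± 0.040 at 9 months, 2.36 ± 0.20 at 12 months and 2.06 ± 0.14 at 18 months (SD, n = 3 each). The change was 1.14 ± 0.23 at 24 against 9 months (SE, adjusted p = 0.00441 in limma) and 1.18 ± 0.23 at 24 against 18 months (SE, adjusted p = 0.00183). It was 0.88 ± 0.23 at 24 against 12 months (SE, adjusted p = 0.0213), where the groups overlapped through replicate 4 of 24 months and 3.90% of all probes were higher. No array of 24 months shared a slide or scan day with another age, so none of these changes could be fitted within a day. At 24 against 18 months it was 0.89 with scan session as a block (adjusted p = 0.180) and 1.17 with slide as a random block (adjusted p = 0.0936). The call at 24 against 12 months was lost without 12 months replicate 4 (0.78, adjusted p = 0.0793) or 24 months replicate 2 (0.81, adjusted p = 0.0552), and within the first session (0.68, adjusted p = 0.212), where 12 months is again 1 array. In the order 3, 24, 12, 9 and 18 months, 24 and 12 months were the neighbours that differed.

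**Figure D2:**
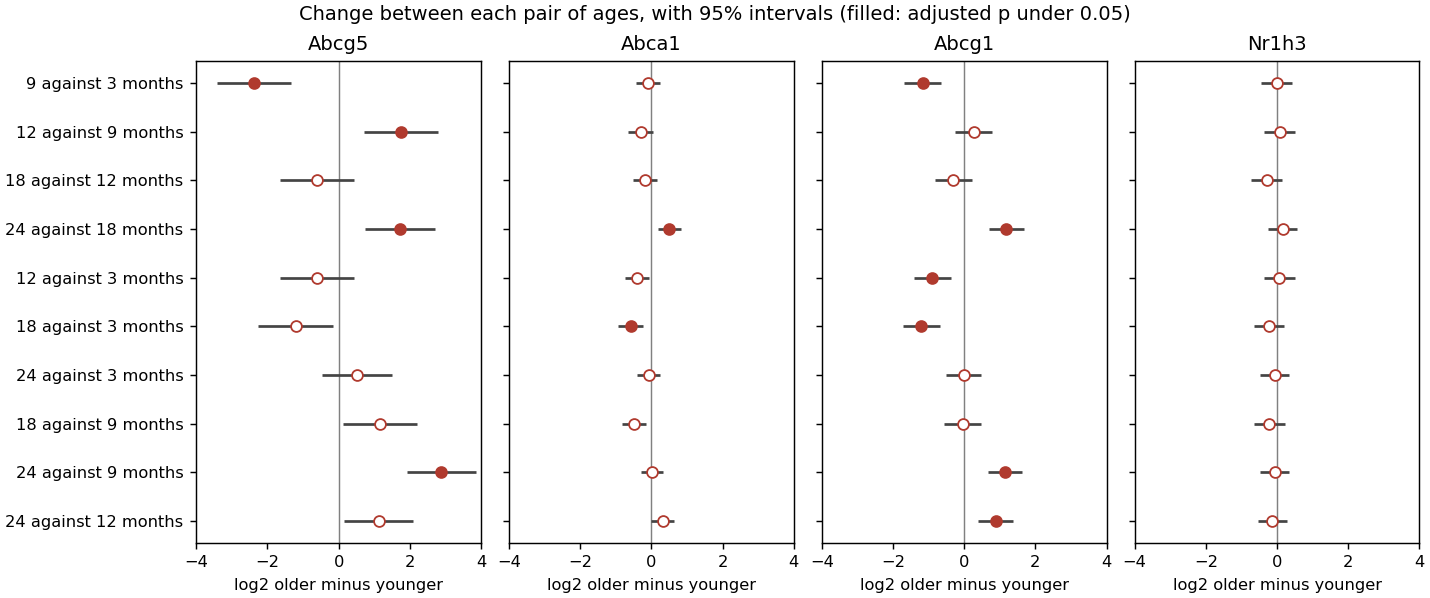
Log2 difference, older minus younger age (horizontal axis), for Abcg5, Abca1, Abcg1 and Nr1h3 in the 10 pairs of ages (rows); points are limma estimates, lines are 95% intervals, and filled points have an adjusted p under 0.05. Filled points are 4 for Abcg5, 2 for Abca1, 6 for Abcg1 and none for Nr1h3.

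Read by pairs of ages, the most members were called at 24 against 18 months, where 3 of 4 rose and 9.82% of all probes rose, and none of the 3 was called with scan session or slide as a block. At 24 against 3 months, the widest span, none of the 4 passed limma's test and none had an unadjusted p under 0.05, while 12.3% of all probes passed. The interval of Abcg1 there was -0.50 to 0.47 and that of Abca1 -0.40 to 0.24, both on the log2 scale. None passed at 18 against 12 months, where 1.21% of probes did and no member had an unadjusted p under 0.05. None passed at 18 against 9 months, where 17.5% of probes did and 2 members, Abcg5 and Abca1, had an unadjusted p under 0.05.

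Other settings ended some of these calls and made others. With normexp background correction Abcg5 differed by 1.38 at 24 against 18 months (adjusted p = 0.104), Abca1 by 0.30 in that pair (adjusted p = 0.289) and Abcg1 by 0.66 at 24 against 12 months (adjusted p = 0.231). When the fit held only the 2 ages compared, adjusted p was 0.0657 for Abcg5 and 0.104 for Abca1 at 24 against 18 months. For Abcg1 it was 0.0538 and 0.205 at 24 against 9 and at 24 against 12 months. The same setting gained calls for Abcg5 at 18 against 3 and at 18 against 9 months (adjusted p = 0.0126 and 0.0429). It also gained that of Abca1 at 18 against 9 months (adjusted p = 0.0391). Without the 3 arrays of low correlation, Abca1 at 24 against 18 months was at 0.32 (adjusted p = 0.0915). That fit called Abca1 at 12 against 3 months (-0.44, adjusted p = 0.0415) and at 18 against 9 months (-0.49, adjusted p = 0.0109). Slide as a random block gave 0.81 for Abcg1 at 24 against 12 months (adjusted p = 0.153), and scan session as a block 0.68 (adjusted p = 0.143).

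**Figure D3:**
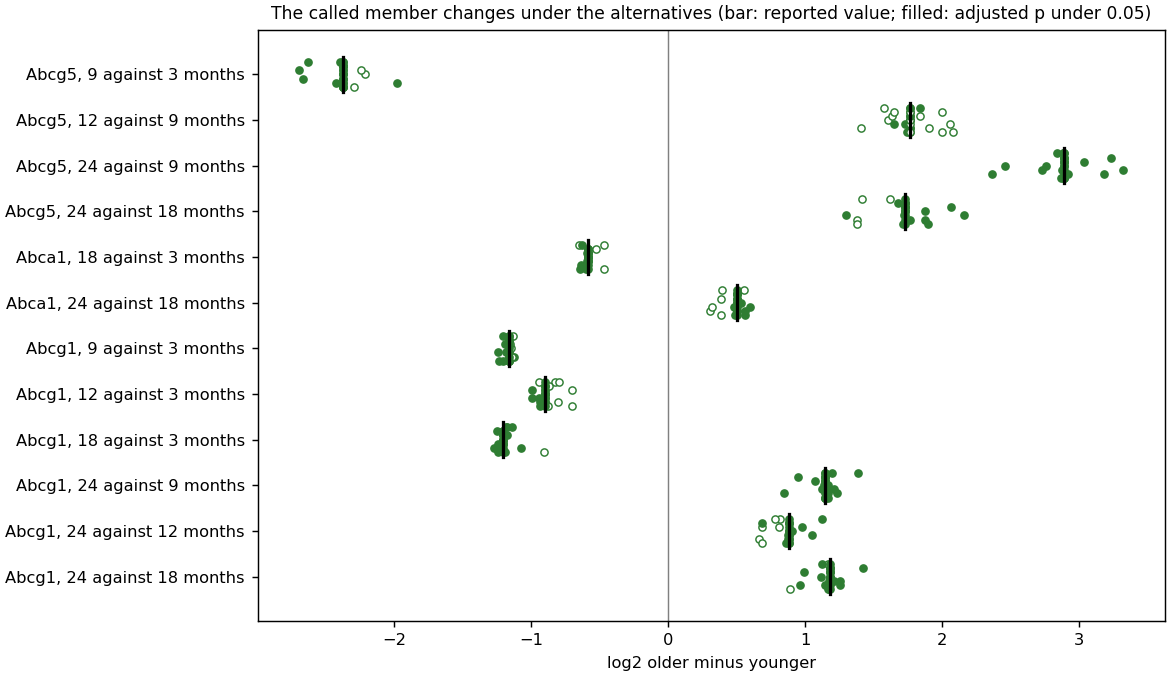
Log2 difference, older minus younger age (horizontal axis), of the 12 called changes (rows) under each alternative; each point is 1 refit, filled where its adjusted p is under 0.05, and the bar is the reported value. No point lies on the other side of 0 from its bar, and Abcg5 at 24 against 9 months, between 2.36 and 3.32, is filled throughout. Refits without an array of an age not compared, or with another probe filter, keep the reported value and cannot cross 0. The same holds for refits of only the ages compared.

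Abcg1 is known from macrophages and other leukocytes, and the markers of those cells also differed between ages. Of 16 measured Kupffer cell and macrophage markers, 10 passed the F test, as did 7 of 8 T and NK cell markers and 5 of 7 neutrophil markers, against 35.5% of all probes. The summed signal of the T and NK cell markers, in multiples of the array's 75th percentile, was 8.57 to 9.87 at 3 months, 2.55 to 2.96 at 9 months, 3.23 to 8.33 at 12 months, 3.37 to 4.07 at 18 months and 10.4 to 30.2 at 24 months. That of the neutrophil markers was 16.6 to 19.7 at 3 months, 2.26 to 2.39 at 9 months, 2.92 to 4.82 at 12 months, 3.23 to 5.64 at 18 months and 2.74 to 53.8 at 24 months. That of the Kupffer cell and macrophage markers was 375 to 386, 317 to 329, 284 to 353, 260 to 320 and 347 to 487 at the same 5 ages. All 3 sums were higher on every array of 3 months than on any array of 9 or 18 months, but a sum weights bright probes most, and single macrophage markers did not move together. At 9 against 3 months 2 of them rose and 2 fell: Vsig4 by 1.65 (adjusted p = 0.00353 in limma) and Cd163 by 1.24 (adjusted p = 0.0166) were higher, while Lyz2 was at -2.30 (adjusted p = 0.000888) and Timd4 at -1.20 (adjusted p = 0.00635). At 18 against 3 months 3 rose and 5 fell, and at 24 against 18 months 9 rose and none fell. Of other markers, 4 of 8 for stellate cells and fibroblasts and 4 of 6 for cholangiocytes passed the F test. So did 4 of 11 for endothelial cells and 1 of 3 for B cells. The summed signal of the stellate cell and fibroblast markers was 34.4 to 39.5 at 3 months and 23.1 to 26.3 at 9 months. It was 22.8 to 28.4 at 12 months, 16.7 to 18.2 at 18 months and 21.8 to 30.9 at 24 months. The part of any of these cell types in the Abcg1 result was not tested, and in whole tissue fewer cells of a type and less RNA per cell cannot be told apart.

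**Figure D4:**
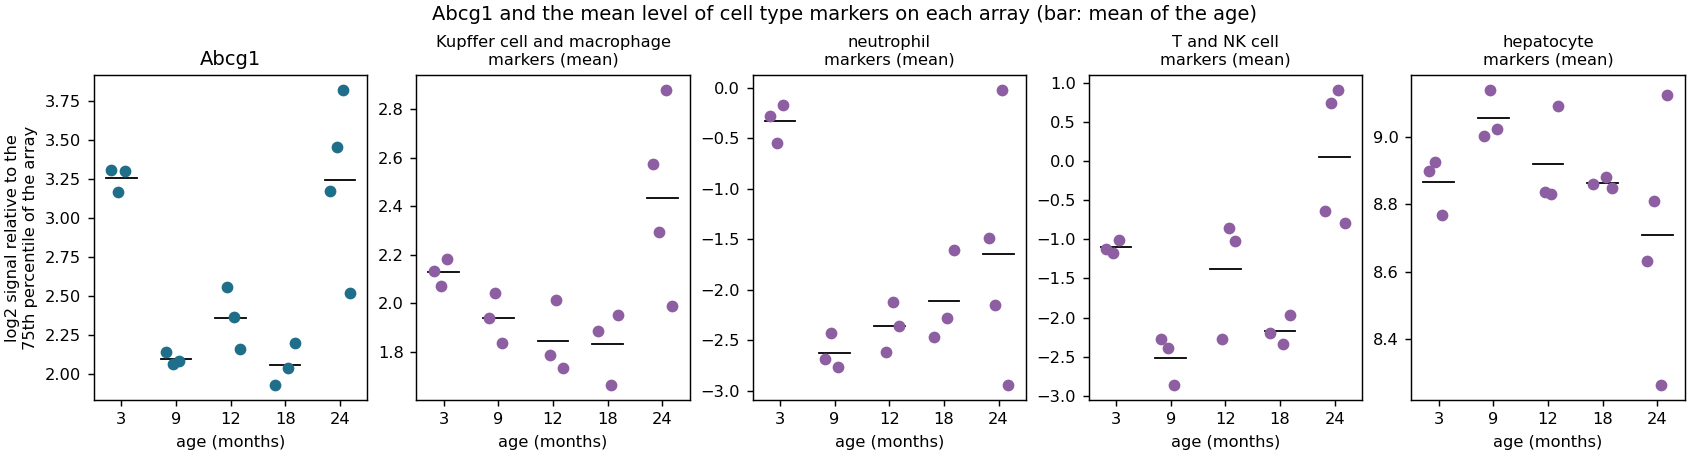
Log2 signal of Abcg1 (left) and the mean log2 signal of macrophage, neutrophil, T and NK cell and hepatocyte markers (vertical axes, log2 relative to the 75th percentile of the array, a separate range in each panel) at the 5 ages; each point is 1 array and the bar is the mean of the age. The 3-month arrays lie above the 9-month arrays in the 4 panels other than that of the hepatocyte markers.

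Across the 16 arrays, the profiles most like that of each member were found among 12489 probes with a gene name and a signal well above background on all arrays. For Abcg1 these were Gpsm3 (Pearson r = 0.984), Rgs19 (r = 0.982), both regulators of G protein signalling, and Emp3 (r = 0.980), a membrane protein. For Abcg5 they were Rnd2 (r = 0.897), a small GTPase, Crebrf (r = 0.878), a regulator of Creb3, and Efcab7 (r = 0.869). For Abca1 they were Crlf2 (r = 0.907), a cytokine receptor, Alpk2 (r = 0.903), a kinase, and Fam211a (r = 0.884). For Nr1h3 they were Mrps18c (r = 0.940) and Rps23 (r = 0.919), ribosomal proteins of mitochondria and cytosol, and Oat (r = 0.916), ornithine aminotransferase. These correlations describe the 16 arrays, which share ages, slides and scan sessions. Other members were left out of the ranking beforehand, so it does not show how alike the members are. None of the 12 genes was one of the listed genes of the sterol pathway.

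Among 18 measured partners of LXR, 4 passed the F test, and none differed at 9 against 3 or at 24 against 3 months. Over all probes 35.5% passed the F test, the share to set beside this count and those of the lists below. Nrip1, a corepressor, was lower at 12, 18 and 24 months than at 9 months. The log2 differences were -1.15, -1.02 and -0.84 (adjusted p = 0.00815, 0.00564 and 0.0108 in limma). Gps2 was higher at 24 than at 9 months by 0.44 (adjusted p = 0.0209), and Ncoa3 had an F test adjusted p of 0.0433. Nr1h2, the second liver X receptor, and Rxra, the retinoid X receptor of liver, were looked up for their role after values had been seen. Nr1h2 averaged 3.30 ± 0.091 at 24 months (SD, n = 4) and 3.11 ± 0.046 at 3 months (SD, n = 3). It was higher at 24 than at 18 months by 0.43 (adjusted p = 0.0260), with an F test adjusted p of 0.0766, and that of Rxra was 0.592.

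Of 22 other LXR targets measured, 10 passed the F test. At 9 against 3 months 3 fell and none rose (2.97% and 1.69% of all probes), and at 24 against 3 months 2 passed, both higher (12.3% of all probes passed). The median log2 difference of the list was 0.14 at 9 against 3 months and -0.18 at 24 against 3 months, beside 0.044 and -0.038 over all probes. Cyp7a1, the rate-limiting enzyme of bile acid synthesis, fell by 2.25 on the log2 scale at 9 against 3 months (adjusted p = 0.0196) and rose by 1.88 at 24 against 3 months (adjusted p = 0.0186). Lgals3, a galectin of macrophages, changed by -1.44 at 9 against 3 months (adjusted p = 0.00724), and Mylip, a ubiquitin ligase, by -0.98 (adjusted p = 0.0120). At 24 against 9 months Mylip was higher by 0.77 (adjusted p = 0.0130) and Abcc3, a basolateral exporter of bile acids and conjugates, by 2.61 (adjusted p = 0.00955), while Lpcat3, which remodels phospholipids, was lower by -0.55 (adjusted p = 0.0322). Srebf1, a classical LXR target, and Scd and Fasn, other targets of the list, were looked up for their role after values had been seen. Srebf1 had an F test adjusted p of 0.258. At 9 against 3 months Scd was at 3.87 and Fasn at 2.70, without a call (adjusted p = 0.0862 and 0.0846 in limma). Scd had an F test adjusted p of 0.0297 and was lower at 24 than at 9 months by -4.01 (adjusted p = 0.0260). The list thus held differences in both directions.

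The 12 measured makers and removers of oxysterols held 5 that passed the F test, beside 35.5% of all probes. At 9 against 3 months 3 were lower and none higher (2.97% and 1.69% of all probes). At 24 against 3 months 1 was higher (12.3% of all probes passed). Cyp7a1 is counted both here and among the LXR targets. Besides Cyp7a1, Cyp7b1, which hydroxylates oxysterols, changed by -2.25 at 9 against 3 months (adjusted p = 0.0165), and Ch25h, which makes 25-hydroxycholesterol, by -1.27 (adjusted p = 0.00800). Dhcr7 and Cyp51, enzymes of late cholesterol synthesis, were higher at 24 than at 18 months by 0.90 (adjusted p = 0.0374) and 1.17 (adjusted p = 0.0125).

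Of 21 measured genes of HDL and the biliary sterol route, 4 passed the F test. Apoa4, an apolipoprotein, rose by 0.90 at 9 against 3 months (adjusted p = 0.0294), and Pltp, the phospholipid transfer protein, rose by 0.80 at 24 against 3 months (adjusted p = 0.0152). At 24 against 18 months Npc1, which exports cholesterol from lysosomes, was lower by -0.83 (adjusted p = 0.00604), and Scp2, a sterol carrier, by -0.79 (adjusted p = 0.0166). Of 12 genes of cholesterol ester storage and release, 5 passed, beside 35.5% of all probes. Gramd1b, a carrier of sterols between membranes, changed by -1.05 and its relative Gramd1c by 0.95 at 9 against 3 months (adjusted p = 0.0208 and 0.0164), and Gramd1a was higher at 24 than at 18 months by 0.74 (adjusted p = 0.00171). Osbpl2, a sterol binding protein, and Nceh1, a cholesterol ester hydrolase, passed the F test with adjusted p of 0.0268 and 0.0342. Neither was called at 9 against 3 or at 24 against 18 months. They were higher at 18 than at 9 months by 0.75 and 1.77 (adjusted p = 0.00724 and 0.0203 in limma).

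Of 18 other factors known to act on the transporter genes, 8 passed the F test. Nr1h4, the bile acid receptor, rose by 0.81 at 9 against 3 months (adjusted p = 0.00233) and was lower at 24 than at 9 months by -0.71 (adjusted p = 0.00136). Ppara, the fatty acid receptor, rose by 0.85 at 24 against 3 months (adjusted p = 0.0286), and Klf4 changed by -1.22 at 9 against 3 months (adjusted p = 0.0334) and by -0.96 at 24 against 3 months (adjusted p = 0.0398).

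Of 16 genes of sterol sensing and cholesterol synthesis, 6 passed the F test, beside 35.5% of all probes. Their median log2 difference was 0.54 at 9 against 3 months and 0.41 at 24 against 3 months. Insig2, which holds the sterol sensor in the endoplasmic reticulum, fell by 1.69 at 24 against 3 months (adjusted p = 0.00438). Already at 12 and 18 months it differed from 3 months by -1.82 and -1.41 (adjusted p = 0.0066 and 0.0119). Lss, an enzyme of the pathway, was higher at 24 than at 18 months by 0.89 (adjusted p = 0.00887), and Fdps had an F test adjusted p of 0.00914.

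**Figure D5:**
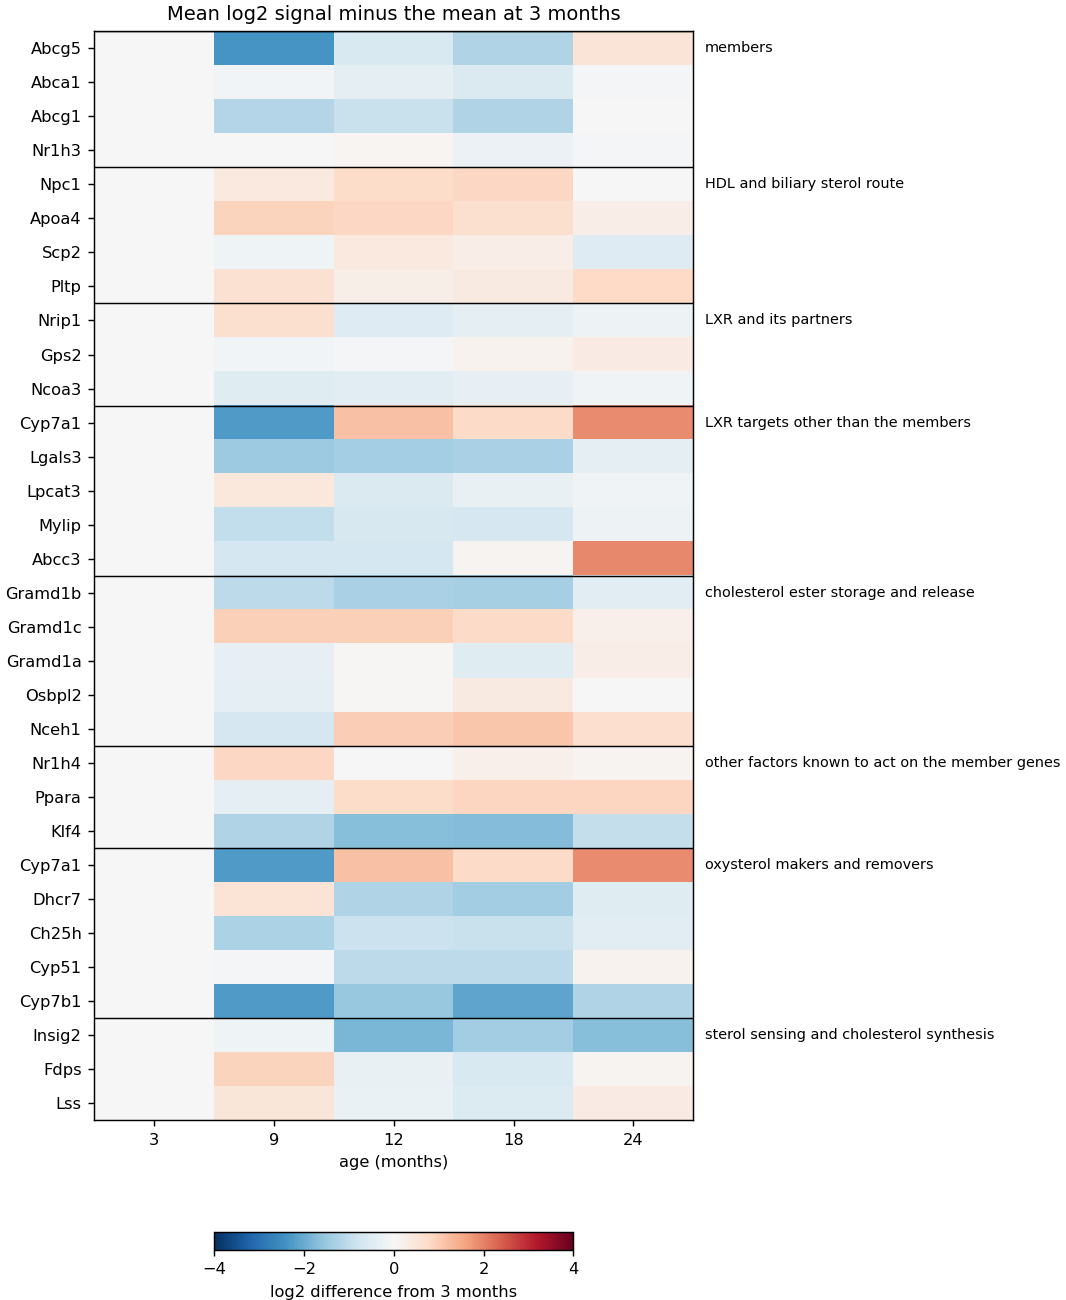
Mean log2 signal at each age minus the mean at 3 months (colour; red is higher and blue lower than at 3 months) for the 4 measured members and, for each of the 7 pathway lists, genes among the 5 with the smallest F test adjusted p. Abcg5 and Cyp7a1 are both blue at 9 months, with log2 differences of -2.37 and -2.25, and Nr1h3 is near 0 at every age.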

How the data were processed

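RNA of 16 liver samples of male Lewis rats was measured on 1-colour (Cy3) Agilent arrays. Per the file headers, the authors' intensity values came from Feature Extraction 10.7.3.1 with background subtracted and trends removed within each array. The series' deposited log2 table, an alternative here, was normalized in a way not given in the sources used here; its array medians were 4.92 to 4.94, and its differences between arrays followed the scanner values (r = 0.983 to 0.999). The labelling kit named in the labels is one for microRNA.

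From the processed signal, log2 minus each array's 75th percentile was taken, outlier spots were left out and spots of a probe averaged. A probe was kept if some age had it well above background on each of its arrays (25681, among them 4 of the 6 member probes). limma 3.58.1 (R 4.3.3) was fitted with 1 mean per age, F test and 10 two-sided contrasts, Benjamini-Hochberg over all kept probes, threshold 0.05, and was tested on simulated data. The number of arrays limits precision. All member probes are named, with up to 5 genes per pathway list by smallest F test p and the 3 most alike genes per measured member. Of a listed gene's probes, the kept one with the highest mean was used. Members and lists were chosen with earlier results of these data known. Some of the genes this rule names are not reported here.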

Additional observations from a re-analysis of the deposited data

How the results depend on the processing

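The 12 called changes of member probes were refitted 334 times under other settings; 268 refits kept the call, 66 lost it and none turned the direction. Many refits could not have turned it. Leaving out an array of an age not compared, changing the probe filter or fitting only the ages compared leaves the difference itself unchanged. Abcg5 at 12 against 9 months stayed at 1.77 in such refits. At 9 against 3 and 24 against 9 months, scan session as a block repeats the fit without 12 months replicate 2. The absence of turned directions is therefore no support for the changes. The 28 changes without a call were refitted 782 times, and 13 refits gained one. Beside the 3 probes with an F test call, the count was 2 to 3 when 1 array was left out. At 24 against 3 and at 18 against 12 months it was 0 throughout these refits. At 9 against 3 months 2 probes were called, and 0 to 2 when 1 array was left out. At 12 against 9 months 1 probe was called, and 0 to 1 when 1 array was left out; it was 0 with normexp background correction, with no filter, with scan session as a block, when only the ages compared were fitted, within the slide that held both ages and within scan session 1. At 24 against 18 months 3 probes were called, and 1 to 3 when 1 array was left out; it was 1 with normexp and 1 when only the ages compared were fitted, and 0 with slide as a random block and 0 with scan session as a block. In the other 5 pairs 6 calls were made, and 4 to 9 when 1 array was left out; there were 2 with slide as a random block and 2 with scan session as a block. The cause was not tested.

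Replicate numbers are shared between ages but did not pair the samples: deviations of same-numbered arrays correlated between -0.37 and 0.19 over 25 pairs. With a replicate block the count at 12 against 9 months was 0 (Abcg5 1.90, adjusted p = 0.105), and Abcg1 at 12 against 3 months was -0.80 (adjusted p = 0.0944). Normexp moved the median log2 difference of all probes at 24 against 3 months to 0.13, against -0.038. Abcg8 is limited by signal near background. The fits within scan sessions were chosen after seeing the data.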
